A study of Homo sapiens with 6 samples.

Results

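The genes examined encode the proteins that dress a spliced messenger RNA, carry it out of the nucleus and inspect it in the cytoplasm. They are the listed members of the exon junction complex, the THO and TREX export assemblies, the cap-binding complex and the nonsense-mediated decay (NMD) pathway. There are 35 of them among the 58735 genes that each library lists, chosen by name. Their levels were measured by RNA sequencing in SK-N-AS, a long-established line of human neuroblastoma cells that had received either an interfering RNA (siRNA) directed at Prp19, written siPrp19, or a negative control, written NC. Prp19 is a splicing factor encoded by PRPF19. Per the labels, transfection lasted 72 h, although a shorter time stands in the study's methods. Both groups share the same parental line and no other agent is named. There were 3 libraries of each kind. The study's methods describe the 3 replicates as biological. Nothing in the labels says whether they came from separate cultures, so p-values measure the spread between these libraries, which may be technical.

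A pre-mRNA receives a cap at its start, and the nuclear cap-binding complex holds that cap. As introns are removed, the spliceosome leaves an exon junction complex upstream of each joined pair of exons. The THO and TREX proteins then load onto the same RNA and hand it to the receptor NXF1-NXT1, which takes it through the nuclear pore. In the cytoplasm, an exon junction complex that a ribosome has not displaced marks a transcript with an early stop codon, and the UPF and SMG proteins lead to its decay. Prp19 serves the splicing reaction itself.

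The labels and the column names of the files do not match, and this bears on every comparison. In 4 of the 6 files the column name is the description of another library, and in 2 of them it states the opposite group. The column NCb is recorded under a library labelled siPrp19, and the column siPrp19b under a library labelled NC. Libraries are called here by their column names, NCa to NCc and siPrp19a to siPrp19c. The main comparison is that of the 6 libraries by column name. It is given beside the 4 libraries for which label and column name give 1 and the same group (NCa and NCc against siPrp19a and siPrp19c), and beside the 6 libraries as labelled.

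PRPF19 itself (ENSG00000110107, chromosome 11) was at 83.0, 83.1 and 93.0 FPKM (fragments per kilobase of exon, set relative to depth) in NCa, NCb and NCc and at 19.6, 19.1 and 18.5 FPKM in siPrp19a, siPrp19b and siPrp19c. All 3 siPrp19 columns lay far below all 3 NC columns, so the targeted gene goes against the labels of the libraries in columns NCb and siPrp19b. Its mean was 77.9% lower by column name, a log2 fold change of -2.12 ± 0.07 (SE, n = 3 per group; limma, adjusted p = 0.000215). It was -2.15 in the 4 libraries (limma, adjusted p = 0.0266) and -0.74 as labelled, where it did not pass (limma, unadjusted p = 0.341).

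Depth was between 14887132 and 19977811 reads per library, as recovered from the FPKM values. A tested member had between 295 and 6301 reads in a library. The libraries were not equally distant from one another. NCa and NCb differed by a chi-square of 1.67 per degree of freedom over genes and siPrp19b and siPrp19c by 2.45, while the 13 other pairs differed by 16.05 to 41.28. NCc and siPrp19a therefore stood apart from the other libraries of their groups, and mitochondrial genes took 8.29% of the reads in siPrp19a against 5.15% to 5.49% elsewhere. Among 11 markers of noradrenergic neuroblastoma, 9 were at 1 FPKM or more in every library. TH stayed below 1 FPKM and MYCN was listed at 0. Of 6 mesenchymal markers, 5 were at 1 FPKM or more in every library. The summed level of the noradrenergic markers was 321 to 340 FPKM in the NC columns and 248 to 260 FPKM in the siPrp19 columns, and that of the mesenchymal markers was 208 to 235 and 167 to 194 FPKM. Of 4 markers of other cell types, PECAM1, EPCAM and ALB stayed below 1 FPKM, whereas PTPRC, a leukocyte gene, was at 24.9 to 30.7 FPKM in the NC columns and at 16.9 to 20.4 FPKM in the siPrp19 columns, which do not overlap. The part of these differences in the results below was not tested. In bulk RNA, fewer cells of a kind and less RNA per cell cannot be told apart.

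All 35 genes had reads, and 34 passed the filter of a mean of at least 1 FPKM. The exception was SARNP, a TREX component, with 53 reads in all 6 libraries together and 0.06 to 0.27 FPKM. Of its 3396 exon bases, 925 are shared on the same strand with another annotated gene, so its level is uncertain. Most of the others were well expressed for this cell line. The median of the 34 was 15.8 FPKM against 6.27 FPKM over all 13718 genes tested, and 31 of them exceeded 5 FPKM in every library. The mean levels of THOC1 (5.82 FPKM), SMG9 (4.92 FPKM) and SMG6 (1.86 FPKM) lay below 6.27 FPKM. ALYREF, the adaptor that recruits the export receptor, stood alone at the top with 117 to 208 FPKM. Next came PNN (39.7 to 42.4 FPKM), EIF4A3 (35.5 to 43.1 FPKM), SMG5 (35.7 to 38.6 FPKM) and RNPS1 (34.7 to 40.6 FPKM). Their ranges overlapped, except that PNN lay above SMG5 throughout. The lowest were THOC1 (4.26 to 6.59 FPKM), SMG9 (4.23 to 5.29 FPKM) and SMG6 (1.56 to 2.21 FPKM), of which only SMG6 lay clear of its neighbour.

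Among the 34 tested members, 1 passed the test by column name, NCBP2, which was lower in the siPrp19 columns. That is 2.94% of the members, against 7.94% of all genes tested (1089 genes). The background was 5.37% in the lower direction and 2.57% in the higher direction, in which 0 members passed. After quantile normalization the calls over all genes were 586 lower and 501 higher, in place of 736 and 353. With limma, 7 members (20.6%) had an unadjusted p under 0.05, against 23.6% of all genes. With voom, a limma model for read counts, 9 did (26.5%), against 24.8% of all genes. In the 4 libraries 0 members passed with limma, and the background was 0.0146% (2 genes). There 4 members (11.8%) had an unadjusted p under 0.05, against 12.3% of all genes. With voom, 1 member passed in those 4 libraries (2.94%), against 2.3% of all genes. As labelled, 0 members passed with limma or voom, and the background with limma was 0.0%. As labelled, 1 member (2.94%) had an unadjusted p under 0.05 with limma, against 1.39% of all genes.

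**Figure D1:**
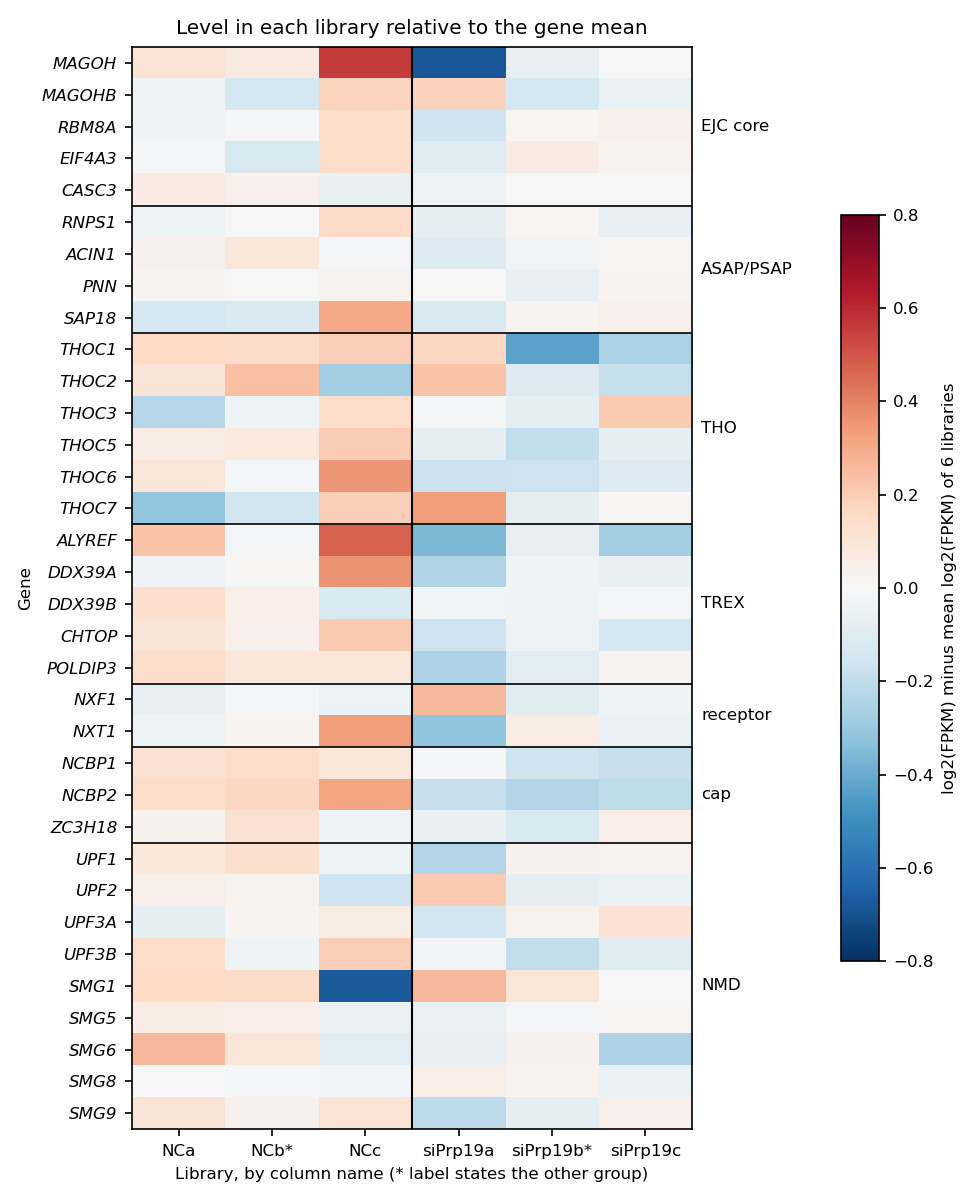
Level of the 34 tested genes in each of the 6 libraries, as log2 FPKM minus the mean log2 FPKM of that gene over the libraries (red above, blue below the mean). Rows are grouped by role, columns are libraries by column name, and an asterisk marks the libraries whose label states the other group. NCc and siPrp19a hold the strongest colours, as for MAGOH, ALYREF and SMG1, and NCBP2 is blue in all 3 siPrp19 columns.

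The sizes were small. By column name the log2 fold changes of the members ran from -0.48 (MAGOH) to 0.21 (SMG1), with a median of -0.07 against -0.02 over all genes tested. The 95% interval of the difference lay within 1.5-fold in either direction for 30 of the 34 members (88.2%, against 76.5% of all genes). In the 4 libraries it did so for 26 of 34 (76.5%, against 56.0%), and the median was -0.11 against -0.02 over all genes. As labelled, the median of the members was -0.04. By column name 28 of 34 members (82.4%) had a negative log2 fold change, against 54.0% of all genes. After quantile normalization, however, this was so for 16 of 34 members, against 6521 of 13718 genes. The median of the members was then 0.02, against 0.01 over all genes. In 9 of 34 members (26.5%) all 3 siPrp19 columns lay below all 3 NC columns, against 18.1% of all genes, and in 0 members did they lie above, against 13.2% of all genes. NCc or siPrp19a was the highest library for 22 members (64.7%, against 49.9% of all genes) and the lowest for 19 (55.9%, against 47.5%). Both extremes came from this pair of libraries in 11 members (32.4%, against 23.7% of all genes).

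**Figure D2:**
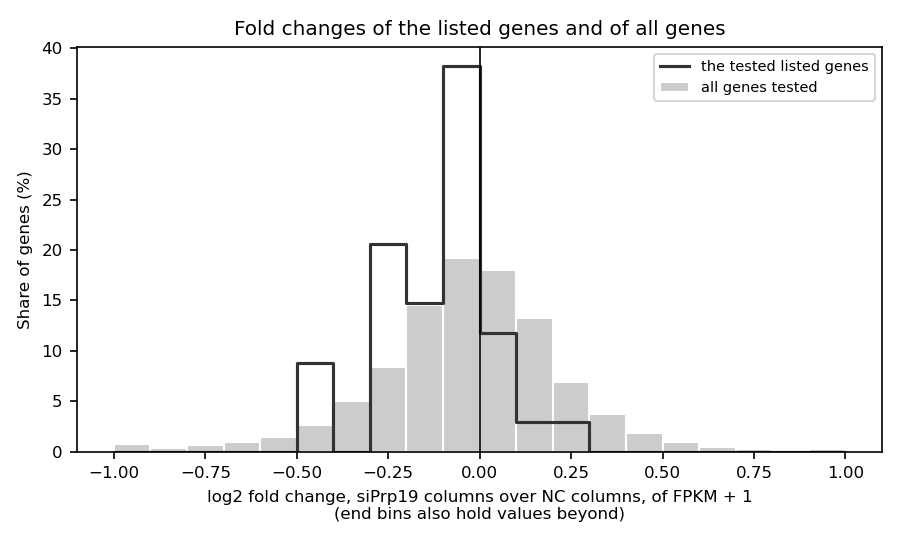
Share of genes in each bin of 0.1 of the log2 fold change of FPKM + 1 between siPrp19 and NC columns, for the 34 tested members (line) and all 13718 genes tested (bars). The members lie between -0.48 and 0.21, most of them below 0, and none falls in the outer bins that the other genes reach.

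In the cap-binding group, the small subunit carried the only call. NCBP2 (ENSG00000114503, chromosome 3, minus strand, 196935402 to 196942597 on GRCh38), the subunit that grips the cap, was at 27.3, 27.6 and 30.7 FPKM in NCa, NCb and NCc and at 21.7, 20.9 and 21.4 FPKM in siPrp19a, siPrp19b and siPrp19c. The groups did not overlap, and the siPrp19 columns lay closer together than the NC columns. The mean fell by 25.2%, from 28.5 ± 1.86 to 21.3 ± 0.372 FPKM (SD, n = 3 each), a log2 fold change of -0.40 ± 0.07 (SE; limma, adjusted p = 0.0199). In the 4 libraries the log2 fold change was -0.41 ± 0.13 (SE), but the adjusted p was 0.296 with limma. As labelled it was -0.15 (limma, unadjusted p = 0.401). The call was lost without NCa, NCb, siPrp19b or siPrp19c, with adjusted p between 0.0711 and 0.0981, and held without NCc (0.0189) or siPrp19a (0.0340). Averaging each close pair of libraries into 1 gave -0.42 with an adjusted p of 0.282, in a fit where 0 members and 0.0146% of all genes passed with limma and 3 members (8.82%) had an unadjusted p under 0.05, against 12.4% of all genes. Of the 5114 exon bases of NCBP2, 142 face NCBP2-AS1 on the other strand, whose level was 1.14 to 3.15 FPKM, and whether the counting used strand is not given in the sources used here. Of the 35 members, 16 have exon bases that face another gene. Among them are SMG6 (2678 of 10554 bases), RBM8A (1399 of 5585) and THOC6 (334 of 1860), so their levels are uncertain in the same way.

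NCBP1, the large scaffold subunit that completes the cap-binding complex, was at 19.9, 20.3 and 19.5 FPKM in the NC columns and at 18.1, 16.4 and 16.1 FPKM in the siPrp19 columns. Here too the groups did not overlap, with the highest siPrp19 value in siPrp19a. By column name the log2 fold change was -0.23 ± 0.07 (SE; limma, adjusted p = 0.0989), and -0.19 in the 4 libraries (adjusted p = 0.595). ZC3H18, which links the cap-bound complex to RNA degradation and export factors, had overlapping groups (7.11 to 8.43 FPKM) and a log2 fold change of -0.07.

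**Figure D3:**
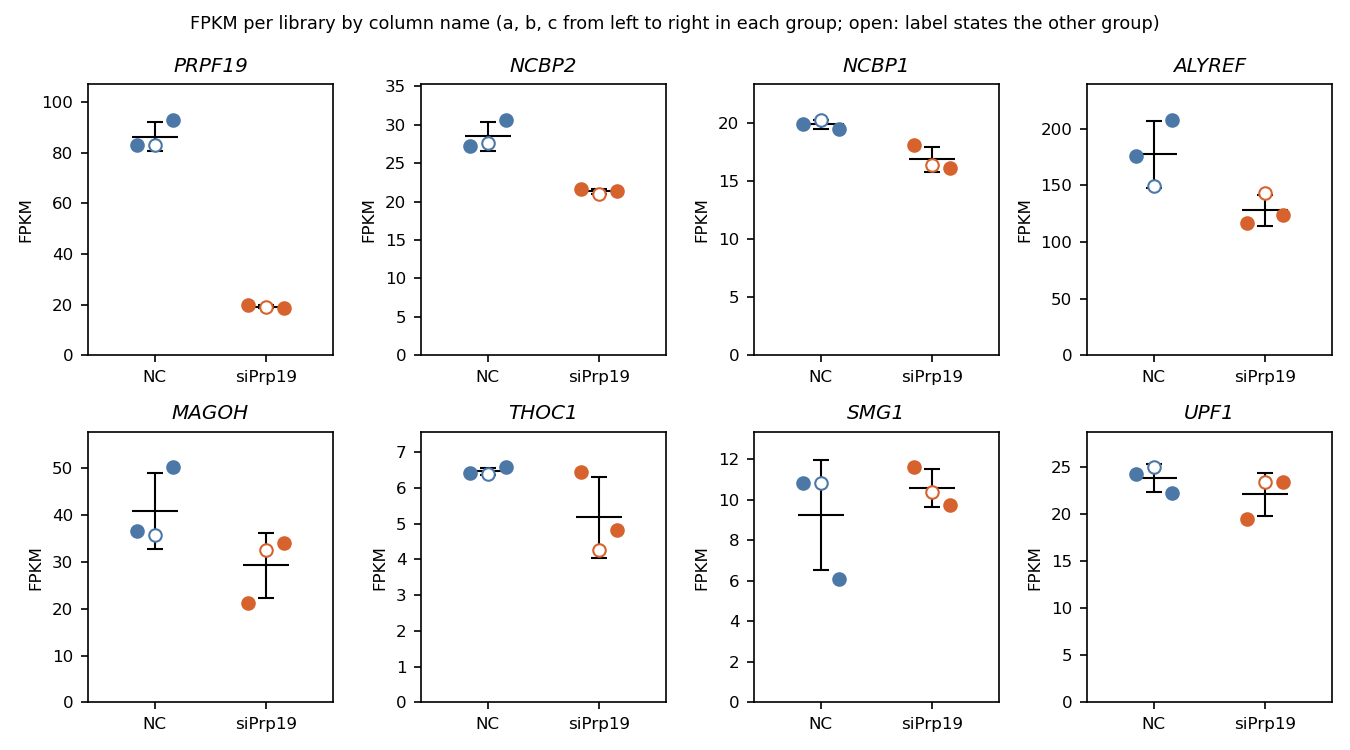
FPKM of PRPF19 and of 7 members in each library, with NC columns in blue and siPrp19 columns in orange, each ordered a, b, c from left to right. Open circles are libraries whose label states the other group, and bars are the mean ± SD of 3. For PRPF19, NCBP2, NCBP1, ALYREF and MAGOH the groups do not overlap, whereas for THOC1, SMG1 and UPF1 they do.

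The adaptors and helicases of TREX held 4 of the 9 members whose siPrp19 columns all lay below the NC columns. These were 80.0% of the 5 tested in this group, against 18.1% of all genes. NCc or siPrp19a was the lowest library for all 5 (100%, against 47.5% of all genes). Both extremes came from these 2 libraries in 3 of the 5 (60.0%, against 23.7%). Limma called 0 of the 5 tested by column name, against 7.94% of all genes. An unadjusted p under 0.05 was found for 3 (60.0%), against 23.6% of all genes. Without NCc and siPrp19a limma called 0 of the 5, against 28.0% of all genes. ALYREF (ENSG00000183684, chromosome 17) was at 176, 149 and 208 FPKM in NCa, NCb and NCc and at 117, 143 and 124 FPKM in siPrp19a, siPrp19b and siPrp19c. The nearest values of both groups, in NCb and siPrp19b, came from the libraries whose labels contradict the column names. Its log2 fold change was -0.46 ± 0.14 (SE; limma, adjusted p = 0.102), and -0.66 ± 0.17 in the 4 libraries (adjusted p = 0.218). With voom on the recovered reads ALYREF passed in both, with an adjusted p of 0.0488 by column name and 0.0405 in the 4 libraries, where 2.3% of all genes passed. NCc was its highest and siPrp19a its lowest library, and the 4 libraries include both. The log2 fold change was -0.34 without NCc and -0.28 without NCc and siPrp19a (limma, adjusted p = 0.108). With close pairs summed and voom, the adjusted p was 0.101, so the call was lost. By column name, NCBP2 and ALYREF were the 2 members that passed with voom, against 10.2% of all genes. As labelled, ALYREF had a log2 fold change of -0.42, and it was the 1 member past an unadjusted p of 0.05 there.

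CHTOP, which together with ALYREF stimulates the TREX helicase, had a log2 fold change of -0.22 ± 0.07 (SE; limma, adjusted p = 0.120), with 15.8 to 17.8 FPKM in the NC columns and 13.8 to 15.0 FPKM in the siPrp19 columns. POLDIP3, another adaptor that binds NXF1, had one of -0.20 ± 0.08 (SE; adjusted p = 0.188). The paralogous helicases differed in level and in spread. DDX39A was at 35.3, 36.2 and 46.3 FPKM in the NC columns and at 30.4, 35.1 and 34.5 FPKM in the siPrp19 columns. NCc was high, and the groups were parted by a narrow gap between NCa and siPrp19b. Its log2 fold change was -0.22 ± 0.12 (SE; adjusted p = 0.317). DDX39B, also called UAP56, was at 20.0, 18.9 and 16.7 FPKM in the NC columns and at 17.9, 17.8 and 18.0 FPKM in the siPrp19 columns. The siPrp19 columns agreed closely and sat inside the range of the NC columns. The log2 fold change was -0.04 ± 0.08 (SE), and it was 0.03 after quantile normalization. Of the 7007 exon bases of DDX39B, 2157 are also annotated to other genes on the same strand, among them the readthrough ATP6V1G2-DDX39B, so its level is uncertain.

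The THO complex, the core on which TREX assembles, had 0 of 6 members called by column name with limma or voom. The shares over all genes were 7.94% and 10.2%. With limma 2 of the 6 had an unadjusted p under 0.05, against 23.6% of all genes. With voom 3 did, the third being THOC1, against 24.8% of all genes. The other two were THOC5, with a log2 fold change of -0.21 ± 0.07 (SE; limma, adjusted p = 0.133), and THOC6, with -0.28 ± 0.10 (SE; adjusted p = 0.138). In both, all siPrp19 columns lay below all NC columns, as in 18.1% of all genes. THOC1 had the largest log2 fold change of the complex and was at 6.42, 6.39 and 6.59 FPKM in the NC columns and at 6.45, 4.26 and 4.82 FPKM in the siPrp19 columns. The 3 NC columns and siPrp19a were alike, and only the close pair siPrp19b and siPrp19c was low. The log2 fold change was -0.29 ± 0.13 (SE; adjusted p = 0.230), and -0.19 in the 4 libraries (adjusted p = 0.659). Without siPrp19a it became -0.43, with an adjusted p of 0.0287. THOC2, the scaffold of the complex, ranged from 10.3 to 14.7 FPKM and gave -0.04 by column name but 0.10 in the 4 libraries. THOC3 (0.07) and THOC7 (0.17) had positive log2 fold changes with overlapping groups. With NCc and siPrp19a both left out, so that the close pair NCa and NCb was set against the close pair siPrp19b and siPrp19c, limma called 5 members in all. These were NCBP2, NCBP1, THOC1 and THOC2, lower, and SAP18, higher, against 28.0% of all genes called in the same fit.

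In the core of the exon junction complex, limma and voom called 0 of 5 members by column name, against 7.94% and 10.2% of all genes. With limma 0 had an unadjusted p under 0.05, against 23.6% of all genes. With voom 1 (20.0%) did, MAGOH, against 24.8% of all genes. MAGOH (ENSG00000162385, chromosome 1), which forms the core heterodimer with RBM8A, was at 36.6, 35.7 and 50.2 FPKM in NCa, NCb and NCc and at 21.3, 32.4 and 34.1 FPKM in siPrp19a, siPrp19b and siPrp19c. The groups did not overlap, but NCc was the highest and siPrp19a the lowest of all, and the 4 other libraries lay between 32.4 and 36.6 FPKM. MAGOH had a log2 fold change of -0.48 ± 0.20 (SE; limma, adjusted p = 0.215), the largest of any member by column name. It was -0.65 in the 4 libraries (adjusted p = 0.396) and -0.12 without NCc and siPrp19a (adjusted p = 0.0866). The other core proteins had log2 fold changes near 0 and overlapping groups. RBM8A was at 21.5 to 26.5 FPKM with a log2 fold change of -0.06. EIF4A3, the helicase that clamps the RNA, was at 35.5 to 43.1 FPKM with a log2 fold change of 0.00 ± 0.09 (SE). CASC3, which stabilises the clamp, was at 15.2 to 16.5 FPKM with -0.03.

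MAGOH has a second copy in the genome, MAGOHB (ENSG00000111196, chromosome 12), which encodes a nearly identical protein. Their coding sequences are shown because the likeness bears on how reads are shared out between both genes. The stretches run from base 2 to base 121 of the MAGOH reading frame and from base 8 to base 127 of that of MAGOHB (GENCODE 29 transcripts), with capitals at the 17 of 120 positions that differ:
MAGOH: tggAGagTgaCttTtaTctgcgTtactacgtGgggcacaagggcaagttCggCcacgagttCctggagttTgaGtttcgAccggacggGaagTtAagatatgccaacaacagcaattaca
MAGOHB: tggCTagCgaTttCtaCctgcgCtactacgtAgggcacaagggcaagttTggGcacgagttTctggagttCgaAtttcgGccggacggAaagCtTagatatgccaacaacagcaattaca
Over the whole reading frames, 85.6% of 444 aligned positions were identical and the longest identical run was 38 bases. MAGOHB was at 6.30, 5.82 and 7.28 FPKM in the NC columns and at 7.29, 5.81 and 6.20 FPKM in the siPrp19 columns. The values interleaved, and the log2 fold change was -0.01 ± 0.11 (SE; limma, adjusted p = 0.978). MAGOHB made up 14.7%, 14.0% and 12.7% of the summed FPKM of the pair in the NC columns and 25.5%, 15.2% and 15.4% in the siPrp19 columns. These shares rest on merged exon lengths of 4856 bases for MAGOHB and 1463 bases for MAGOH. The reads over all libraries were 3166 and 5204. The highest share was that of siPrp19a, the library in which MAGOH was lowest, and the other 5 libraries lay between 12.7% and 15.4%.

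**Figure D4:**
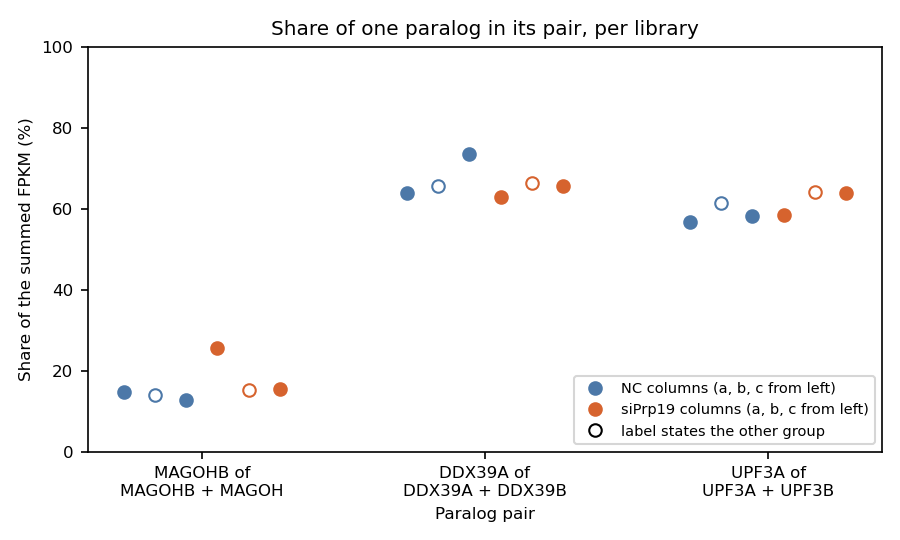
Share of one paralog in the summed FPKM of its pair, in percent, for each library (NC columns blue, siPrp19 columns orange, a to c from left to right; open circles are libraries whose label states the other group). MAGOHB takes 12.7% to 15.4% in 5 libraries and 25.5% in siPrp19a, DDX39A takes 63.0% to 73.5% with the highest value in NCc, and UPF3A takes 56.8% to 64.3%. The shares depend on merged exon length, as for DDX39A (3840 bases, 14113 reads over all libraries) and DDX39B (7007 bases, 12870 reads).

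The peripheral proteins RNPS1, ACIN1, PNN and SAP18, which join the exon junction core in the ASAP and PSAP complexes, had log2 fold changes between -0.08 and -0.03, with overlapping groups in all 4. Limma and voom called 0 of 4, against 7.94% and 10.2% of all genes. With either test 0 had an unadjusted p under 0.05, against 23.6% (limma) and 24.8% (voom) of all genes. RNPS1 was at 35.6, 36.6 and 40.6 FPKM in the NC columns and at 34.7, 36.9 and 34.9 FPKM in the siPrp19 columns, with NCc above the rest. Its log2 fold change of -0.08 ± 0.08 (SE; limma, adjusted p = 0.591) was the largest of the group and turned to 0.03 after quantile normalization. PNN, at 39.7 to 42.4 FPKM, had the lowest ratio of highest to lowest library of the tested members, 1.07. SAP18 was at 25.7 FPKM in NCc and at 19.0 to 21.5 FPKM in the 5 other libraries.

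The export receptor showed no call in either subunit with limma or voom, against 7.94% and 10.2% of all genes. With either test 0 of 2 had an unadjusted p under 0.05, against 23.6% (limma) and 24.8% (voom) of all genes. NXT1, the small partner of NXF1, was at 26.3, 27.4 and 34.0 FPKM in the NC columns and at 21.5, 28.1 and 26.0 FPKM in the siPrp19 columns. The groups overlapped, with the highest value again in NCc and the lowest in siPrp19a. The log2 fold change was -0.21 ± 0.13 (SE; limma, adjusted p = 0.402), and 0.01 without NCc and siPrp19a. NXF1, which contacts the nuclear pore, was at 12.1 to 12.7 FPKM in 5 libraries and at 15.4 FPKM in siPrp19a, with a log2 fold change of 0.08.

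**Figure D5:**
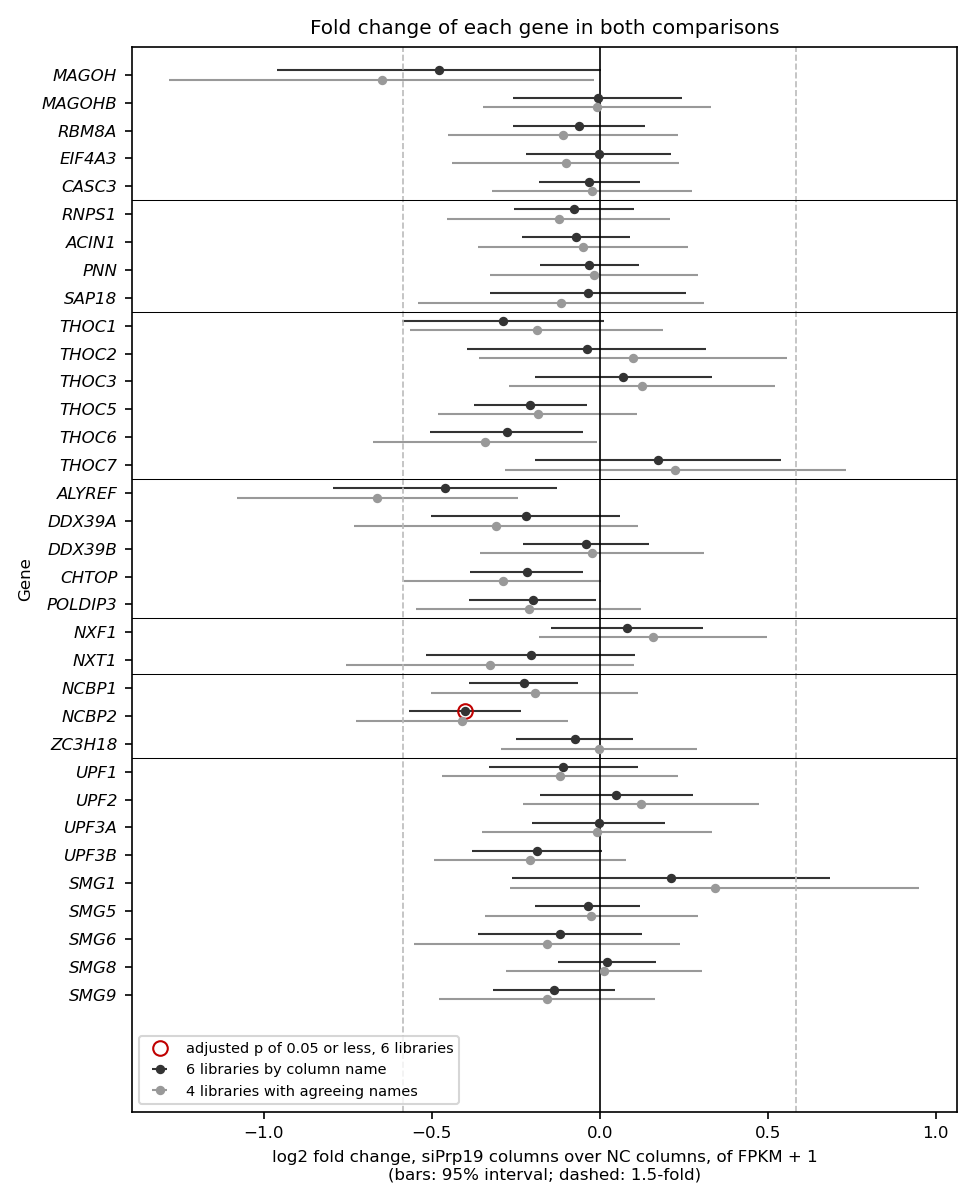
Log2 fold change of FPKM + 1 between siPrp19 and NC columns for each tested gene, with its 95% interval, in the 6 libraries by column name (black) and in the 4 libraries whose label and column name agree (grey). Dashed lines mark 1.5-fold and the red ring marks NCBP2, the 1 member with an adjusted p of 0.05 or less. Most black intervals lie between the dashed lines, and the grey ones are wider.

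The groups overlapped for all 9 NMD factors. Over all genes, the siPrp19 columns all lay below the NC columns in 18.1% and above them in 13.2%. Limma and voom called 0 of the 9, against 7.94% and 10.2% of all genes by column name. With either test 0 had an unadjusted p under 0.05, against 23.6% (limma) and 24.8% (voom) of all genes. The median log2 fold change of the NMD factors was -0.04 by column name and -0.03 in the 4 libraries. UPF1, the helicase at the centre of the pathway, was at 24.3, 25.0 and 22.2 FPKM in the NC columns and at 19.5, 23.4 and 23.4 FPKM in the siPrp19 columns. Only siPrp19a lay below the other libraries, and the log2 fold change was -0.11 ± 0.09 (SE; limma, adjusted p = 0.542). UPF2, which bridges UPF1 to the exon junction complex through UPF3B, was at 9.02 to 11.6 FPKM with a log2 fold change of 0.05.

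The UPF3 paralogs compete for the same place in that bridge. UPF3A was at 12.4, 13.3 and 13.7 FPKM in the NC columns and at 11.8, 13.4 and 14.2 FPKM in the siPrp19 columns, and the values interleaved. Its log2 fold change of 0.00 ± 0.08 (SE; limma, adjusted p = 0.988) had no stable sign. UPF3B was at 9.45, 8.34 and 9.79 FPKM in the NC columns and at 8.40, 7.43 and 7.99 FPKM in the siPrp19 columns. Only siPrp19a reached above the lowest NC column, and the log2 fold change was -0.19 ± 0.08 (SE; adjusted p = 0.225). UPF3A made up 56.8%, 61.5% and 58.2% of the pair in the NC columns and 58.4%, 64.3% and 64.0% in the siPrp19 columns, so both ranges overlapped.

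SMG1, the kinase that phosphorylates UPF1, had the largest positive log2 fold change of all members, and it rested on 1 library. It was at 10.8, 10.8 and 6.11 FPKM in NCa, NCb and NCc and at 11.6, 10.4 and 9.73 FPKM in siPrp19a, siPrp19b and siPrp19c. NCc was far below the 5 others, which lay between 9.73 and 11.6 FPKM. The log2 fold change was 0.21 ± 0.20 (SE; limma, adjusted p = 0.582), and -0.03 without NCc. SMG1 had 25874 reads in all libraries against 6576 for 7 named pseudogenes, so its level depends on how reads of similar sequence were assigned. SMG8 and SMG9, which hold SMG1 in check, had log2 fold changes of 0.02 and -0.14. Of the 3752 exon bases of SMG8, 422 are shared on the same strand with another annotated gene. SMG5 and SMG6, which bind phosphorylated UPF1 and bring on decay (SMG6 as an endonuclease), had -0.04 and -0.12.

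Other genes of the same processes were counted in the same fit. Of 10 further NMD and termination factors, such as PNRC2 and ETF1, 0 were called with limma or voom by column name. The shares over all genes were 7.94% and 10.2%. With limma 3 of the 10 had an unadjusted p under 0.05, against 23.6% of all genes. Of 4 other proteins tied to the exon junction complex (PYM1, CWC22, CWC27 and SRRM1), 0 were called with limma or voom. With limma 1 (25.0%) had an unadjusted p under 0.05, against 23.6% of all genes. Of 21 other export and cap genes, 20 were tested and 1 was called (5.0%, against 7.94% of all genes). With limma 5 (25.0%) had an unadjusted p under 0.05, against 23.6% of all genes. The 1 called was PHAX, the adaptor for export of small nuclear RNAs, which binds the cap-binding complex. PHAX was at 15.5, 15.7 and 16.7 FPKM in the NC columns and at 11.8, 10.4 and 11.2 FPKM in the siPrp19 columns. The groups were well apart, with a log2 fold change of -0.48 ± 0.07 (SE; limma, adjusted p = 0.0113), and of -0.45 in the 4 libraries (adjusted p = 0.231). Leaving out each library in turn gave an adjusted p for PHAX between 0.0180 and 0.0611. Averaging each close pair of libraries into 1 gave -0.48 with an adjusted p of 0.208 (limma), so the call was lost.

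Transcripts known to be degraded by NMD were counted beside the factors. Of 14 such transcripts, among them GAS5, ATF4, GADD45A and TBL2, limma called 0 by column name, with 3 (21.4%) at an unadjusted p under 0.05 against 23.6% of all genes. In the 4 libraries limma called 0, with 1 (7.14%) at an unadjusted p under 0.05 against 12.3% of all genes. With voom 1 was called by column name (7.14%, against 10.2% of all genes), ARFRP1, whose log2 fold change with limma was -0.34 (adjusted p = 0.0731). Their median log2 fold change was -0.13 by column name against -0.02 over all genes. A negative sign was found for 11 of 14 (78.6%), against 54.0% of all genes. After quantile normalization the median was -0.08, against 0.01 over all genes, and 9 of 14 had a negative sign, against 6521 of 13718 genes. GAS5 was at 66.7, 67.6 and 82.1 FPKM in the NC columns and at 65.1, 63.0 and 68.8 FPKM in the siPrp19 columns. The groups overlapped, and NCc was again the highest library.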

How the data were processed

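RNA was sequenced from 6 libraries of SK-N-AS cells. The authors deposited 1 FPKM value per gene and library. Per the submitters' processing notes, HISAT2 2.0.5, featureCounts 1.5.0-p3 and hg38 were used, and the strandedness of counting is not given in the sources used here. Symbols for 58207 identifiers were looked up in a table of current gene names and for 528 in GENCODE 29. FPKM times merged exon length was a whole multiple of 1 constant for 100% of values (tolerance 0.05 reads), which gave back the reads. Groups were taken from the labels, each column going to the library whose description it names. Genes whose mean over the libraries reached 1 FPKM were tested with limma 3.58.1 (R 4.3.3) on log2(FPKM + 1), which understates changes of low genes. P-values were adjusted by Benjamini-Hochberg over all tested genes, and adjusted p of 0.05 or less was called. Alternatives were a pseudocount of 0.1, no filter, other scalings, no mean-variance trend, voom, the replicate block, close pairs averaged and each library left out. Leaving out NCc and siPrp19a, and summing the close pairs with voom, were added after seeing the data. Library-wise values were given for PRPF19, members called by column name or in the 4 libraries, the largest change in each role and 3 paralog pairs; NCBP1, UPF1, PHAX and GAS5 were chosen after their values were seen. The procedure was run on simulated independent libraries, which lacked close pairs such as those seen here. That run therefore gives no error rate for these libraries. From the list of further NMD factors, 1 gene is not reported here. The members and lists were chosen with earlier results of these data known. Python 3.11.15 with pandas 2.3.3, matplotlib 3.10.9 and Biopython 1.88 was used.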

Additional observations from a re-analysis of the deposited data

How the results depend on the processing

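Of 381 values recomputed under another setting, 320 were taken as the same. For a named gene this meant the same sign and call, and for a median a value within the spread. For a count it meant an equal number, 0 included, or one within a ratio of 1.5. The cause of the other changes was not tested. By column name, the count of members called was 2 with voom, 0 with close pairs averaged, 0 with close pairs summed and voom (adjusted p of NCBP2 0.176) and 5 without NCc and siPrp19a, and 0 to 2 when each library was left out in turn. The count of genes called was 512 with no filter, 679 with the same FPKM sum in each library, 2 with close pairs averaged, 327 with close pairs summed and voom, 3846 without NCc and siPrp19a, and 253 to 1354 when each library was left out. Of the calls, 353 of 1089 were higher, against 501 of 1087 after quantile normalization. The median of the members was 0.0158 after quantile normalization, -0.0327 with the same FPKM sum and -0.12 with close pairs summed and voom. In the 4 libraries, 1 member was called with voom, and the genes called numbered 0 with no filter, 316 with voom and 0 to 70 when 1 library was left out, where the lone library of its group is assumed to vary like the others. The median there was 0.0159 after quantile normalization, -0.0640 with the same FPKM sum and -0.130 to -0.0470 with 1 library left out. PRPF19 in the 4 libraries was -2.15 with no filter (adjusted p = 0.286) and -2.23 to -2.07 with 1 library left out, lost without NCa (adjusted p = 0.113) or NCc (0.242). Signs turned after quantile normalization for DDX39B (0.0335), MAGOHB (0.0187), RNPS1 (0.0337) and UPF3A (0.0582), with the same FPKM sum for MAGOHB (0.0306) and UPF3A (0.0374), and without NCc and siPrp19a for NXT1 (0.00918), SMG1 (-0.0960) and UPF3A (0.0929). With each library left out, they turned in at least 1 fit for DDX39B (-0.11 to 0.0129), MAGOHB (-0.0875 to 0.0704), SMG1 (-0.0327 to 0.34) and UPF3A (-0.0570 to 0.0655). A total of 16 of 34 members kept 1 sign in all 17 fits by column name. With the replicate block, 928 genes and 1 member, NCBP2, were called by column name. Same-numbered columns had correlations of their deviations of 0.13, -0.05 and 0.20, so the numbers were not taken to pair the libraries, and it changed no other call of a named gene.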
